A study of Drosophila melanogaster with 6 samples.

Results

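Protein arginine methyltransferases take a methyl group from S-adenosylmethionine and place it on the side chain of arginine. The group of genes described here comprised Art1, Art2, Art3, Art4, Art6, Art7, Art8, Art9, csul (capsuleen) and vls (valois), chosen by gene symbol, 10 of the 17457 features of the deposited table. All 10 were annotated as protein-coding. They were followed in ovary RNA from Drosophila melanogaster in which the germline overexpressed Sam-S, the synthetase that makes S-adenosylmethionine. There were 3 overexpression samples, from UASp-Sam-S flies crossed to the nanos-gal4 driver line, and 3 control samples, from the same driver line crossed to flies whose docking site held no construct. All 6 samples therefore carried nanos-gal4, which is active in germ cells. RNA came from whole ovaries, so germ cells and the somatic follicle cells and muscle around them were measured together. The labels gave no age and did not say how many flies were pooled, and p-values measure only the spread between these samples.

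These enzymes are grouped by the mark they leave. Type I enzymes, such as the PRMT1 relative Art1 and the CARM1 relative Art4, make asymmetric dimethylarginine, the type II enzyme PRMT5 makes symmetric dimethylarginine, and PRMT7 of mammals makes monomethylarginine. The fly PRMT5 is csul. The WD-repeat protein encoded by vls is its partner, the counterpart of mammalian MEP50, and is not itself a methyltransferase. In the female germline csul and vls are maternal-effect genes of the germ plasm, the posterior cytoplasm that specifies germ cells. Symmetric dimethylarginine on the PIWI proteins Piwi, Aub and AGO3 is bound by Tudor-domain proteins, and the same mark is found on the spliceosomal Sm proteins.

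The overexpression samples were separated from controls by Sam-S, which stood at 496.94, 512.27 and 483.27 TPM in control replicates 1, 2 and 3 and at 1571.93, 1442.66 and 1540.70 TPM in the overexpression replicates. TPM is the share of all transcripts that a gene holds, corrected for transcript length, so levels can be set beside each other between genes. For Sam-S it counts transgene and endogenous transcripts together. TPM does not keep sequencing depth, which is unknown here. Between 7786 and 7911 features reached 1 TPM in each sample. Summed over 5 germline markers (vas, nos, osk, orb and bru1) the level was 2418.54 to 2499.42 TPM in controls and 2551.01 to 2602.79 TPM with overexpression. Of the 5 testis markers, aly and sa were listed at 0 in every sample and the sum never passed 0.47 TPM. Of 5 haemocyte and fat body markers, Fbp1 was listed at 0 everywhere and only srp exceeded 1 TPM. The 5 muscle sheath markers summed to between 120.83 and 182.36 TPM.

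The 10 genes fell into 7 that were well above 1 TPM in every sample and 3 that were near or at 0. The 7 were, in falling order of mean level, Art1, Art4, Art3, csul, vls, Art8 and Art7, from 289.9 TPM down to 34.1 TPM over the 6 samples. The other 3, Art2, Art6 and Art9, never passed 0.22 TPM. No step of this order down to Art8 showed overlap: the lowest of the 6 values of each gene lay above the highest value of the next, although csul and vls came close, at 64.92 TPM and 63.24 TPM. Art8 and Art7 overlapped, with Art8 above Art7 in all 6 samples.

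**Figure D1:**
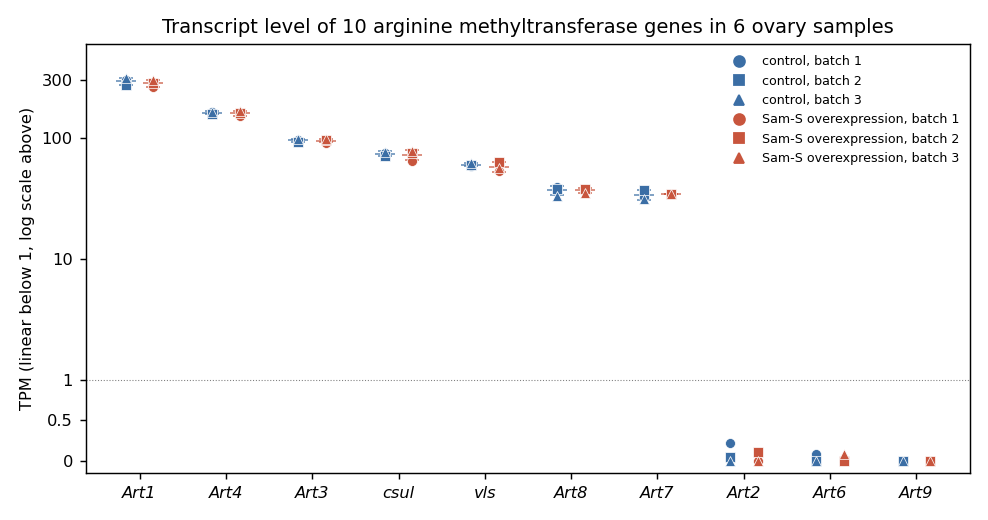
Level of each of the 10 genes in TPM (vertical axis, linear below 1 and logarithmic above), for 3 control (blue) and 3 Sam-S overexpression (red) samples, with bars for the mean ± SD of each group in the 7 genes tested. Art1 was highest, at 264.75 to 311.66 TPM, Art2, Art6 and Art9 did not exceed 0.22 TPM, and the groups overlapped for every gene.

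The main result of the comparison is that none of the 7 genes tested, vls among them, changed detectably when the germline overexpressed Sam-S. Of the 7 genes with a mean of at least 1 TPM, 0 passed an adjusted p of 0.05 in limma (Benjamini-Hochberg over all 7855 features tested), against 0.28% of all tested features, 22 in number. Without control replicate 1 or control replicate 3 that number was 11 or 14, and the count of members stayed at 0. At an unadjusted p under 0.05 there were also 0 of 7, against 6.58% of all tested features. The adjusted p of the 7 genes ran from 0.948 to 1.000. For none of them were the 3 control values separated from the 3 overexpression values, while 11.9% of tested features had groups that did not overlap. By the authors' deposited table, 0 of the 10 genes had an FDR under 0.05, against 0.699% of all features, and every one of the 10 was given an FDR of 1. That table rests on the same 6 samples.

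A p that misses the threshold does not show equal levels, and the width of the intervals says what size of change could have been missed. The log2 fold changes of the 7 genes lay between -0.06 and 0.02, with a median of -0.01, the same to 2 decimals as the median of all tested features. Their 95% intervals together spanned -0.23 to 0.20, or from 14.6% lower to 14.6% higher on the TPM + 1 scale. The smallest change among the 22 features that passed was 0.39 in absolute log2 fold change, outside all 7 intervals. The spread within groups, as the residual SD on the log2 scale, was 0.047 to 0.11 for these genes, with 4 of 7 under the median of 0.095 over all tested features.

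**Figure D2:**
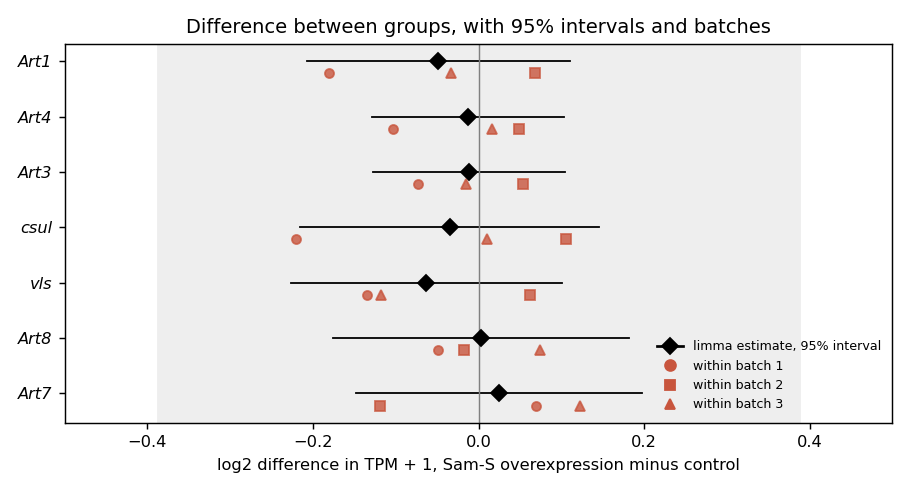
Log2 difference in TPM + 1 between Sam-S overexpression and control (horizontal axis) for the 7 genes tested, with the limma estimate and its 95% interval (black) and the difference within each of the 3 batches (red symbols); grey marks the range up to the smallest absolute change called among all features, 0.39. Every interval includes 0 and lies within the grey range.

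The PRMT5 complex comes first among the members because it acts on PIWI proteins and in germ plasm. The methyltransferase gene csul (FBgn0015925, chromosome 2R, 16264652 to 16266959, plus strand) was at 75.80, 70.64 and 77.48 TPM in control replicates 1, 2 and 3. With Sam-S overexpression it was at 64.92, 76.07 and 78.04 TPM. The lowest and the highest of the 6 values were thus both overexpression samples, and the controls lay between them. The means were 74.6 ± 3.56 TPM and 73.0 ± 7.08 TPM (SD, n = 3 each), and the log2 fold change was -0.03 (95% interval -0.22 to 0.15, limma adjusted p = 0.973). Taken batch by batch, csul differed by -0.22, 0.11 and 0.010 on the log2 scale in batches 1, 2 and 3, so that batch 1 alone was lower with overexpression.

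The partner gene vls (FBgn0003978, chromosome 2L, 20064261 to 20065679, minus strand) was at 58.51, 60.51 and 62.09 TPM in controls and at 53.20, 63.24 and 57.15 TPM with overexpression. The controls were close together and the overexpression samples lay on both sides of them. Its means were 60.4 ± 1.79 TPM and 57.9 ± 5.06 TPM (SD, n = 3 each). The log2 fold change of vls, -0.06 (95% interval -0.23 to 0.10, limma adjusted p = 0.948), was the furthest from 0 of the 7. Its within-batch differences were -0.13, 0.063 and -0.12.

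Transcripts of the enzyme outnumbered those of its partner in every sample. The ratio of csul TPM to vls TPM was 1.30, 1.17 and 1.25 in controls and 1.22, 1.20 and 1.37 with overexpression. The ranges overlapped, with means of 1.24 ± 0.065 and 1.26 ± 0.089 (SD, n = 3 each). Transcript ratios do not give the ratio of the proteins. The level of vls also carries the limit of its exon overlap with lok, given below.

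A pair of further genes encode proteins known in mammals to bring substrates to PRMT5. The chloride channel regulator homologue icln, the fly pICln, which presents Sm proteins, was at 126.09, 117.87 and 125.01 TPM in controls and 114.80, 118.52 and 118.79 TPM with overexpression. RIOK1, a kinase that competes with pICln for PRMT5 in mammals, was at 56.76 to 64.47 TPM in controls and 58.87 to 61.56 TPM with overexpression. Both had overlapping groups, and neither passed the test, with log2 fold changes of -0.07 for icln and 0.00064 for RIOK1 (limma adjusted p = 0.921 and 1.000).

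Among the type I enzymes, Art1 was the most abundant transcript of the whole group. Art1 (FBgn0037834, chromosome 3R, 10786481 to 10788226, minus strand) is the fly relative of PRMT1, the enzyme that makes most asymmetric dimethylarginine in mammalian cells. It was at 300.17, 272.40 and 311.66 TPM in controls and 264.75, 285.58 and 304.64 TPM with overexpression. The groups overlapped, with the highest value in control replicate 3 and the lowest in overexpression replicate 1. Its means were 294.7 ± 20.2 TPM and 285.0 ± 20.0 TPM (SD, n = 3 each), and its log2 fold change was -0.05 (95% interval -0.21 to 0.11, limma adjusted p = 0.954). By mean TPM Art1 ranked 489 among the 17457 features.

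Art4 (FBgn0037770, chromosome 3R, 9982816 to 9986060, minus strand) is the fly CARM1, which in mammals acts as a coactivator of nuclear receptors and in fly has been tied to the ecdysone receptor. It was at 163.91, 156.95 and 165.12 TPM in controls and 152.45, 162.41 and 167.02 TPM with overexpression. Both extremes were overexpression samples. The means were 162.0 ± 4.41 TPM and 160.6 ± 7.45 TPM (SD, n = 3 each), with a log2 fold change of -0.01 (95% interval -0.13 to 0.10, limma adjusted p = 0.986). In all 6 samples Art1 exceeded Art4 in TPM, by a ratio between 1.74 and 1.89. The genes of the ecdysone receptor, EcR and its partner usp, were at 38.35 to 46.64 TPM and 110.58 to 126.33 TPM over the 6 samples. Of these 2 genes, 0 passed the test.

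Art3 (FBgn0038306, chromosome 3R, 15227605 to 15229408, minus strand) is the fly relative of PRMT3, a cytoplasmic enzyme that in mammals and fission yeast methylates the ribosomal protein S2. It varied least of the 7, at 96.67, 92.69 and 98.89 TPM in controls and 91.88, 96.25 and 97.81 TPM with overexpression, a coefficient of variation of 2.94% over the 6 samples. The group means of Art3, 96.1 ± 3.14 TPM and 95.3 ± 3.07 TPM (SD, n = 3 each), differed by less than either SD. Its log2 fold change was -0.01 (95% interval -0.13 to 0.10, limma adjusted p = 0.991). The highest coefficient of variation among the 7 genes was that of csul, 6.89%.

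Art7 (FBgn0034817, chromosome 2R, 23076688 to 23079038, minus strand) is the fly PRMT7, which in fly cells takes part with csul in the methylation of Sm proteins. Its controls were spread over 32.81, 37.32 and 31.49 TPM, and its overexpression samples lay within that range at 34.48, 34.29 and 34.37 TPM. The means were 33.9 ± 3.06 TPM and 34.4 ± 0.095 TPM (SD, n = 3 each), with a log2 fold change of 0.02 (95% interval -0.15 to 0.20, limma adjusted p = 0.978). In every sample csul exceeded Art7, by a ratio of 1.88 to 2.46 in TPM.

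Art8 (FBgn0032329, chromosome 2L, 11009821 to 11011086, minus strand) is a family member named by sequence. It was at 39.45, 38.35 and 33.44 TPM in controls and 38.11, 37.87 and 35.27 TPM with overexpression, so that the overexpression samples fell within the range of the controls. The log2 fold change was 0.0028 (95% interval -0.18 to 0.18, limma adjusted p = 1.000). The level of Art8 is less certain than the others because 1077 bp of its 1210 bp of exon, 89.0%, also lie in exons of Nup154, a nucleoporin gene on the opposite strand, whose level was 113.8 ± 5.90 TPM in the control group and 106.9 ± 7.44 TPM in the other (SD, n = 3 each). The libraries were strand-specific per the labels, but whether strand was used in counting is not given in the sources used here. Overlaps of exons on opposite strands were smaller for vls, 121 bp shared with lok, and Art7, 170 bp shared with CG3085. These were 9.24% and 7.62% of the exon bases of vls and Art7. The level of lok was far above that of vls, at 447.6 TPM in controls and 442.7 TPM with overexpression (means). CG3085 was at 10.9 and 11.6 TPM. Art4 lies within the range of Glut4EF, on the opposite strand, and shares 0 bp of exon with it.

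The 3 genes without appreciable signal are listed by library because a value of 0 in such a table need not be a measured absence. Art2 (FBgn0031592, chromosome 2L, 4277696 to 4281324, minus strand) was at 0.22, 0.05 and 0.00 TPM in controls and 0.00, 0.11 and 0.00 TPM with overexpression. Art6 (FBgn0038189, chromosome 3R, 13944654 to 13945812, minus strand) had 0.08 TPM in control replicate 1 and in overexpression replicate 3 and was listed at 0 in the other 4 samples. Art9 (FBgn0038188, chromosome 3R, 13942238 to 13943460, minus strand) was listed at 0 in all 6, as were 5276 features, 30.2% of the table. Art6 and Art9 are adjacent, on the same strand and 1193 bp apart. These 3 were below the 1 TPM minimum and were not tested.

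Summed over the 10 genes, the arginine methyltransferases and vls held 767.62, 728.91 and 780.17 TPM in controls and 699.79, 755.82 and 774.38 TPM with overexpression. The groups overlapped, with the lowest sum in overexpression replicate 1 and the highest in control replicate 3. Art1 and Art4 together made up between 58.9% and 61.1% of the sum in each sample, and csul between 9.28% and 10.1%. In the authors' deposited table the mean log2 CPM, which is not corrected for length, was 8.06 for Art1, 8.11 for Art4, 6.50 for csul and 5.54 for vls. Art1 and Art4 thus had similar read support there although Art1 had the higher TPM, and their longest annotated transcripts are 1528 bp and 3071 bp.

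Several of the genes shared an order of the samples. Overexpression replicate 1 gave the lowest value of the 6 for 5 of the 7 genes, namely Art1, Art4, Art3, csul and vls. Control replicate 2 was next lowest for Art1, Art4, Art3 and csul. These were also the samples with the highest summed level of 6 follicle cell markers (tj, Fas3, Vm26Aa, Vm32E, Cp36 and Cp38), at 18211 TPM in overexpression replicate 1 and 14509 TPM in control replicate 2, against 10175 to 13431 TPM in the other 4 samples. Vm26Aa and Vm32E encode vitelline membrane proteins and Cp36 and Cp38 chorion proteins, both made late in egg chamber growth. The 6 markers made up 1.02% to 1.82% of TPM, and Vm26Aa, Cp36 and Cp38 weigh most in their sum. Every one of them was highest in overexpression replicate 1. Control replicate 2 was second for Vm26Aa, Vm32E, Cp36 and Fas3. For Cp38 it was at 4148.05 TPM, below control replicates 1 and 3 at 4239.30 and 4291.79 TPM. For tj it was at 61.48 TPM, below overexpression replicate 2 at 62.24 TPM. In bulk tissue, fewer cells of a type and less RNA per cell cannot be told apart.

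This order of samples was common. Overexpression replicate 1 and control replicate 2 were the 2 lowest samples for 4 of the 7 members, for 19 of 43 related genes described below, and for 32.0% of all 7855 features tested. Of the 6 follicle cell markers, Vm26Aa among them, 0 were called between groups. This does not show equal levels, because the limma intervals of the vitelline membrane and chorion genes were wide. On the log2 scale they ran from -0.49 to 0.42 for Vm26Aa and from -0.72 to 0.28 for Cp38. Without overexpression replicate 1 the log2 fold change of Art1 was 0.0033, that of Art4 0.024, that of Art3 0.014 and that of csul 0.046, each with the opposite sign to the value over all 6 samples, and none was called. The part of egg chamber stage in the spread of these genes was not tested.

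**Figure D3:**
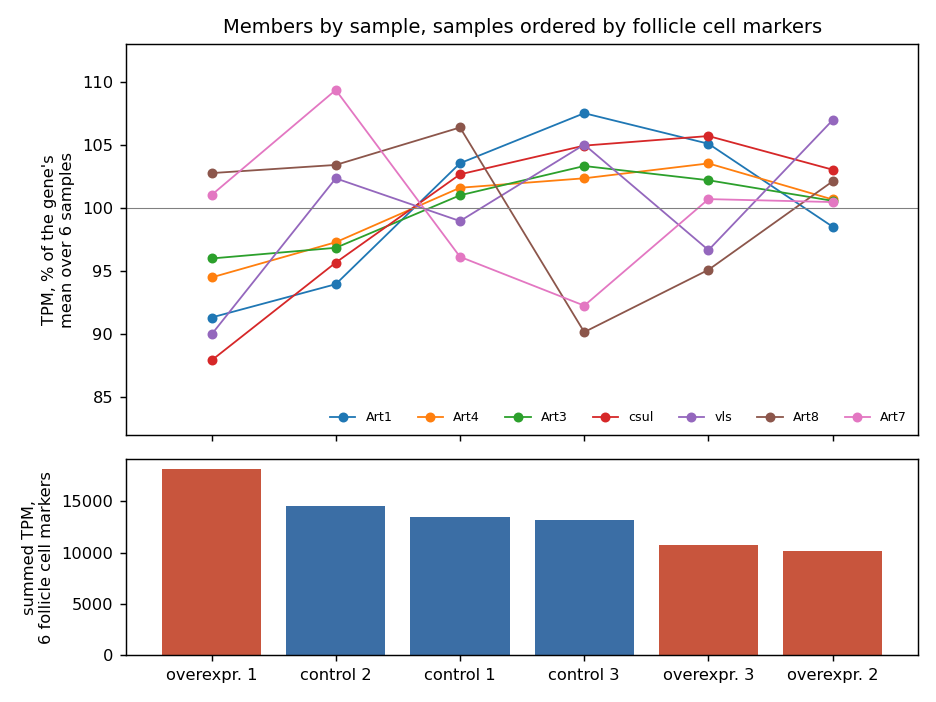
Upper panel, TPM of each of the 7 genes as a percentage of its own mean over the 6 samples; lower panel, summed TPM of 6 follicle cell markers in the same samples, ordered by that sum (blue control, red Sam-S overexpression). Art1, Art4, Art3 and csul were lowest in the 2 samples with the highest sums, while Art7 was highest in control replicate 2 and Art8 and Art7 lowest in control replicate 3.

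Genes that work with the arginine methyltransferases were then followed as substrates and readers of their marks, 43 distinct genes in 9 lists. Of the 43, 0 passed an adjusted p of 0.05 in limma, higher or lower, against the 0.28% above. At an unadjusted p under 0.05 there were 5, 11.6% of them, against 6.58% of all tested features. The groups did not overlap for 6 of the 43, 13.95%, against 11.9%. The median log2 fold change of the 43 was -0.02, beside -0.01 for all tested features. By the authors' deposited table, 0 of the 43 had an FDR under 0.05.

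The PIWI proteins, which bind piRNAs and carry symmetric dimethylarginine in their amino-terminal tails, had positive log2 fold changes for all 3 genes, and 0 of 3 passed the test. The nuclear protein gene piwi was at 137.93, 131.32 and 133.61 TPM in controls and 153.46, 144.16 and 145.29 TPM with overexpression, and aub, which amplifies piRNAs in nuage, was at 88.43, 85.26 and 86.02 TPM and 93.34, 105.19 and 95.81 TPM. For both, every overexpression sample lay above every control. Groups without overlap, in either direction, were found for 11.9% of all tested features. The log2 fold changes were 0.14 (95% interval 0.027 to 0.24, limma adjusted p = 0.585) for piwi and 0.18 (0.045 to 0.31, adjusted p = 0.549) for aub. AGO3, the partner of Aub in that amplification, overlapped between groups at 135.12 to 155.61 TPM in controls and 139.50 to 179.39 TPM with overexpression. In the authors' deposited table the FDR of aub was 0.507 and that of piwi 1.

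Beside these values, the germline markers osk and orb, 2 of 5, were also higher in every overexpression sample than in any control. Neither passed the test, and groups did not overlap for 11.9% of all tested features. The germ plasm organiser osk was at 938.63 to 981.26 TPM in controls and 1025.38 to 1069.88 TPM with overexpression (log2 fold change 0.13, limma adjusted p = 0.580). The germline marker bru1 had a log2 fold change of 0.08 with overlapping groups, and vas and nos had -0.10 and -0.04. Thus 3 of the 5 markers had positive and 2 negative log2 fold changes. The part of germ cell content in the values of piwi and aub was not tested.

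Of the 14 genes listed as Tudor-domain readers, 0 passed the test, with 9 positive and 5 negative log2 fold changes and a median of 0.02. They were listed by domain, and binding to methylated arginine is not implied for each. The most abundant was Tudor-SN, a nuclease homologue with a Tudor domain, at 452.93 to 476.24 TPM in controls and 460.72 to 494.49 TPM with overexpression. The reader furthest from 0 was qin, a Tudor protein of the piRNA pathway, at 9.23, 9.95 and 10.46 TPM in controls and 12.80, 12.44 and 10.20 TPM with overexpression, with groups that overlapped (log2 fold change 0.23, 95% interval -0.023 to 0.49, limma adjusted p = 0.820). In krimp, which gathers Aub and AGO3 in nuage, overexpression replicate 1 stood apart at 75.25 TPM, against 92.24 to 107.41 TPM in the other 5 samples. The founding member tud, named here for its role and not by the rule, was at 52.14 to 55.89 TPM in controls and 55.50 to 59.58 TPM with overexpression. Groups did not overlap for 1 of the 14, fs(1)Yb, against 11.9% of all tested features. Its level was near the 1 TPM minimum, at 1.47 to 1.52 TPM in controls and 1.61 to 1.95 TPM with overexpression.

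The Sm proteins SmB, SmD1 and SmD3, splicing factors whose arginine-glycine tails csul methylates, had log2 fold changes of -0.09, -0.02 and -0.04. None of the 3 passed the test, and all had overlapping groups. In the SMN complex, which loads Sm proteins onto small nuclear RNAs, 0 of 4 genes passed the test. Its log2 fold changes ran from -0.14 for Gem2 to -0.04 for Gem3, all negative, beside a median of -0.01 for all tested features. In batch 2 each of the 4 was higher with overexpression. Smn, the Tudor-domain protein of that complex, was at 124.00 to 135.43 TPM in controls and 116.00 to 131.70 TPM with overexpression. The Gemin5 homologue rig was at 109.28 to 119.39 TPM and 104.33 to 117.98 TPM, and Gem2 at 59.49 to 73.68 TPM and 53.40 to 66.90 TPM. All 3 had overlapping groups.

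Among 7 germ plasm genes, where csul and vls act, 0 passed the test, with 3 positive and 4 negative log2 fold changes. The furthest below 0 was pgc, a repressor of transcription in germ cells, at 666.43, 637.39 and 640.82 TPM in controls and 572.67, 612.03 and 618.91 TPM with overexpression. Its groups did not overlap, and it did not pass the test (log2 fold change -0.11, 95% interval -0.22 to -0.001, limma adjusted p = 0.755). Thus osk, aub and pgc, 3 of the 7, were each separated between groups, osk and aub upward and pgc downward. Groups did not overlap for 11.9% of all tested features. None of the 3 passed the test, and aub is the same gene as in the PIWI list.

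Of the 10 RNA-binding proteins rich in arginine and glycine, a common sequence context of type I methylation, 0 passed the test. Their median log2 fold change was 0.0095. RpS2, the PRMT3 substrate, was at 3306 to 3695 TPM in controls and 3279 to 3766 TPM with overexpression. Next in abundance were vig2, at 964.68 to 1052.66 TPM in controls and 990.34 to 1071.65 TPM with overexpression, and rin, the fly G3BP of stress granules, at 459.46 to 511.55 TPM and 497.71 to 537.87 TPM. The groups overlapped for all 3. The furthest from 0 was vig, a component of the RNA interference machinery, at 47.64 to 53.38 TPM in controls and 54.30 to 61.19 TPM with overexpression. Its groups did not overlap, and its log2 fold change of 0.20 did not pass the test (95% interval 0.036 to 0.36, limma adjusted p = 0.602). PSR, the fly relative of JMJD6, which has been proposed as an arginine demethylase in mammals, was at 91.54 to 94.23 TPM in controls and 88.60 to 97.10 TPM with overexpression.

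**Figure D4:**
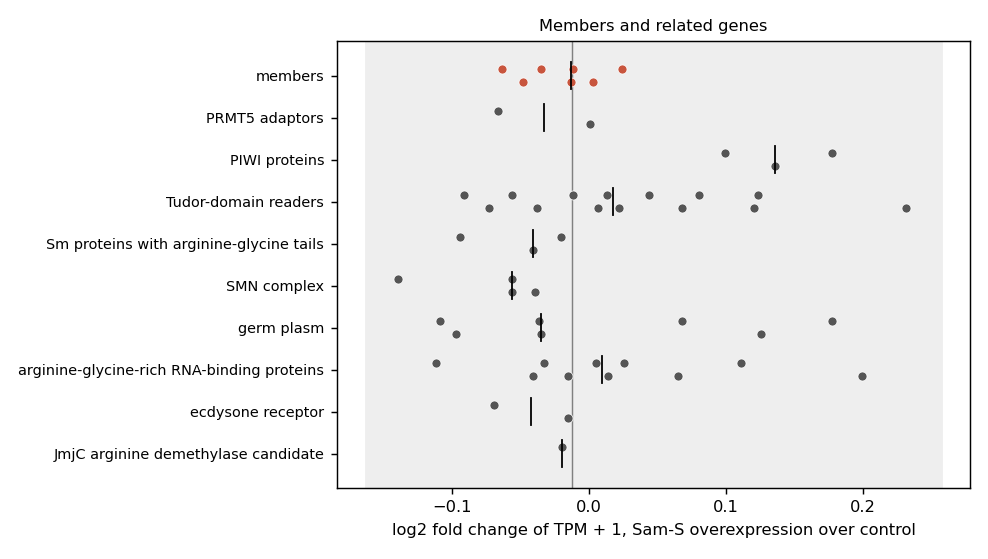
Log2 fold change of TPM + 1 (horizontal axis, Sam-S overexpression over control) for the 7 tested members (red) and the genes of 9 related lists (grey points), with the median of each list (black bar); the shaded range holds the middle 90% of all 7855 tested features and the grey line their median, -0.01. The 7 members lie between -0.06 and 0.02, and all 3 PIWI protein genes lie above 0.09.

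The other product of each methylation reaction is S-adenosylhomocysteine, which inhibits methyltransferases and is broken down by the enzyme encoded by Ahcy. That gene was at 591.11, 657.69 and 598.19 TPM in controls and 633.41, 608.50 and 610.53 TPM with overexpression, with overlapping groups (log2 fold change 0.0057, limma adjusted p = 0.995). Its relative AhcyL1 was at 72.76 to 74.95 TPM in controls and 76.13 to 79.56 TPM with overexpression, without overlap and without passing the test (log2 fold change 0.09, limma adjusted p = 0.861). AhcyL2 and Gnmt had means under 1 TPM and were not tested. Of the 3 tested genes of this cycle only Sam-S passed the test, with a log2 fold change of 1.61 and a standard error of 0.05 (limma adjusted p = 2.79e-06). The SAM synthetase transcript thus rose 3.05-fold with overexpression. In the same samples the summed transcripts of the arginine methyltransferases and vls stood at 758.9 ± 26.7 TPM for controls against 743.3 ± 38.8 TPM for overexpression (SD, n = 3 each).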

How the data were processed

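RNA levels were taken from 1 table deposited by the authors, with 1 column per sample holding TPM computed by the authors, per the file headers, rounded to 2 decimals. The submitters' processing notes name STAR; the counting method, its use of strand and the genome build are not given in the sources used here. Per the labels, a stranded kit was used on polyA RNA. The authors' deposited table also held its own comparison: p-value, FDR, log2 fold change and mean log2 CPM. All 10 members matched the Ensembl annotation of assembly BDGP6 by identifier, symbol and coordinates.

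Values were tested as log2(TPM + 1) with limma 3.58.1 (R 4.3.3), group as the only term, with a mean-variance trend, over all 7855 features with a mean of at least 1 TPM, and p-values (two-sided) were adjusted by Benjamini-Hochberg. A fold change on this scale understates low genes. A count test was not used because TPM are not counts. The test was checked on simulated data with normal errors. It recovered 62.5% of features changed by a log2 fold change of 0.5, the smallest effect tried. That check says nothing on changes as small as those within the members' intervals. The batch in the labels has the same number as the replicate, which pairs the samples. Deviations of same-numbered samples correlated at -0.06, -0.06 and 0.21. Those of different-numbered samples ran from -0.23 to 0.26, the highest for control replicate 2 with overexpression replicate 1. Samples of 1 number were thus not the most alike. The alternatives were another pseudocount, other minimum levels, other scalings, the pairing as a block, no trend, and leaving out each sample.

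Members and gene lists were chosen with earlier results of these data known. In each related list the text names the 3 most abundant genes, the gene with the smallest p, any that passed, and all PIWI, PRMT5-adaptor and Sm genes; the marker lists are given as sums. Other names were chosen after their values were seen or to list a group's markers.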

Additional observations from a re-analysis of the deposited data

How the results depend on the processing

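None of the 7 tested members was called under any of the 13 alternatives, nor were Art2 and Art6 in the fit with no filter on low values, the only one that included them; Art9 was in none. Of the related genes, 0 were called under any alternative that included them. The smallest adjusted p of a member was 0.669, without control replicate 2. With the replicate block the count of members was 0 and that of all features 16; Sam-S stayed called (adjusted p 0.000128) and the block changed the call of 0 of the 71 tested genes among the members, lists and overlapping features. All features called numbered 22, 13 with no filter on low values (features at 0 in all samples left out), and 11 to 27 when each sample was left out in turn, with 11 without control replicate 1 and 14 without control replicate 3. The member fold changes lie close to 0, so their signs turned: under quantile normalization Art4 was at 0.0088 and Art3 at 0.0092. Leaving out each sample in turn, the log2 fold change ran from -0.104 to 0.0033 for Art1, -0.037 to 0.014 for Art3, -0.041 to 0.024 for Art4, -0.025 to 0.094 for Art7, -0.068 to 0.048 for Art8 and -0.085 to 0.046 for csul; vls stayed negative in all 14 fits, between -0.128 and -0.0055. The cause was not tested. Depth is unknown, so the 0 values of Art2, Art6 and Art9 have no detection limit.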
